A study of Mus musculus with 6 samples.

Results

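The chromatin around 8 genes of the BCL2 family was mapped in regulatory T cells (Tregs) with ATAC-seq, an assay that marks open DNA with cuts of the Tn5 transposase. The genes were Bcl2, Bcl2l1 and Mcl1, whose products keep cells alive, Bax and Bak1, whose products kill them, and Bcl2l11, Bbc3 and Pmaip1, whose products start the killing. Peaks of all libraries that overlapped were merged into regions, and a region belonged to a gene where it overlapped the RefSeq span of the gene or 10 kb on either side. By this rule 71 of the 64817 regions of the series lay at the 8 genes, and none of them was counted at more than 1 gene. The 6 libraries came from mice carrying B16.F10 melanoma cells, a transplantable mouse tumour line of the same C57BL6 strain. The KO group comprised 3 libraries from il33-/- mice on the C57BL6 background, which lack the cytokine interleukin-33, and the WT group 3 libraries from C57BL6 mice. In both groups 300000 tumour cells had been given under the skin, the draining lymph nodes were taken at day 14, and cells were sorted as CD4+CD25+GITR+, which the labels call Tregs that also carry Foxp3. The labels give no age, do not name the deleted part of Il33 and do not say that the replicates were separate mice, so the p-values below speak of the scatter among these 6 libraries, part or all of which may be technical.

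Proteins of the BCL2 family decide at the outer membrane of mitochondria whether a cell dies. BAX and BAK form pores that release cytochrome c, the guardians BCL-2, BCL-XL and MCL-1 hold them in check, and BH3-only proteins such as BIM, PUMA and NOXA bind the guardians and free the pore formers. In Tregs, MCL-1 is needed for survival and BIM drives the loss of cells deprived of interleukin-2.

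The KO libraries were shallower than the WT libraries, with 4.72 to 10.3 M tags (M is the prefix mega) kept by the peak caller against 12.9 to 15.2 M, and their lists were shorter, with 37266 to 42738 peaks against 52836 to 55939. Any number of called regions carries both differences, and depth cannot be told apart from genotype. A region absent from a list is only uncalled in that library and need not be closed. As these are bulk libraries, fewer cells with an open site and less opening per cell cannot be told apart either. Peaks lay over the annotated starts of the T cell genes Il2ra, Ctla4 and Cd3e in all 6 libraries and over that of Tnfrsf18 in 2 KO and 3 WT libraries. Foxp3 had 4 regions called in all 6 libraries, but none over the start used here. Of 9 marker genes of CD8 T, NK, B, myeloid and melanoma cells with an annotated start, 8 had no peak over it in any library and Cd8a had one in 1 WT library. Within 10 kb, which can reach into neighbouring genes, Csf1r, Lyz2, Tyr and Dct had no region, while the other 8 markers had some. Regions called in all 6 libraries numbered 3 each at Cd79a and Pmel, 2 each at Pax5, Eomes and Mlana and 1 at Itgam, and none at Cd8a and Klrb1c. Over the list of 12 such markers the summed number of regions was 16 to 20 in KO libraries and 26 in each WT library, and its part in the results was not tested.

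Fewer regions were called at the 8 genes in Tregs of the mice without Il33. The KO libraries held 50, 39 and 51 of the 71 regions in replicates 1, 2 and 4, against 62, 62 and 60 in WT replicates 2, 4 and 6. The means were 46.7 ± 6.66 for KO and 61.3 ± 1.15 for WT (SD, 3 libraries each), a difference of -14.7 regions, and the groups did not overlap (two-sided exact permutation p = 0.1, the smallest p that 3 against 3 libraries allow). The lowest number was in KO replicate 2, which was also the shallowest library. Peaks covered 28.8 ± 3.23 kb of the 8 loci in KO and 40.2 ± 1.52 kb in WT libraries (SD, n = 3 each, exact permutation p = 0.1). The KO and the WT library closest to each other in depth, KO replicate 4 with 10.3 M tags and WT replicate 4 with 12.9 M, called 51 and 62 regions. Of the 51, 3 (5.88%) were not called in WT replicate 4 (background 5.33%), and of the 62, 14 (22.6%) were not called in KO replicate 4 (background 30%).

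Set against the length of its list, each library gave the 8 genes a like share of its peaks. KO libraries had 12.7, 11.8 and 12.4 peaks at the 8 genes per 10000 peaks, against 12.0, 11.3 and 11.7 in WT libraries. The groups overlapped, with means of 12.3 ± 0.469 for KO and 11.7 ± 0.382 for WT (SD, 3 libraries each, exact permutation p = 0.2). When each list was cut to its 37266 most significant peaks, KO libraries called 49, 39 and 46 regions and WT libraries 49, 47 and 45, so that the groups overlapped (44.7 ± 5.13 against 47 ± 2, exact permutation p = 0.7). The covered length differed in those lists, by -7.14 kb (exact permutation p = 0.1). Cutting the lists makes the number of peaks alike but not the number of tags. Covered length over the whole series is not given for either setting. In the full lists, peaks covered fewer bases in every KO library at 40.3% of all regions called in all 6 libraries.

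The 71 regions differed in how steadily they were called. In all, 37 (52.1%) were called in all 6 libraries, against a background of 45.4% of all regions of the series. Another 16 (22.5%) were called in at least 1 WT and no KO library, against a background of 25.6%, and 1 (1.41%), inside Bcl2l1, in a KO but no WT library, against 3.17%. WT-only regions, those called in all 3 WT and no KO libraries, numbered 4, or 7.55% of the 53 regions that every WT library called, a share near the background of 6.95%. No region showed the opposite pattern, called in each KO library and never in WT (background 0.0404% of the regions that every KO library called). Without KO replicate 1 there were 7 WT-only regions, and in equal-length lists none. All 8 regions over a transcription start were called in all 6 libraries, while 17 of 44 elsewhere in the gene bodies (38.6%) and 12 of 19 in the flanks (63.2%) were. Over all protein-coding genes 88.6% of regions over a start, 37.9% elsewhere in gene spans and 39.7% in flanks outside any such span were called in all 6 libraries, whereas 8 of the 19 flank regions here lay on another protein-coding gene. Regions called in all libraries were long and high, with a median length of 939 bp and a median height of 2.01 times the median of the lists. The others had a median length of 403 bp and a median height of 0.838. Length was taken over the merged peaks of all libraries, so it can grow with the number of libraries that called a region. All regions of the series had a median length of 518 bp. Among regions called in all 6 libraries, the median height per library was 1.81 to 2.41 at the 8 genes and 1.25 to 1.74 over the series.

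**Figure D1:**
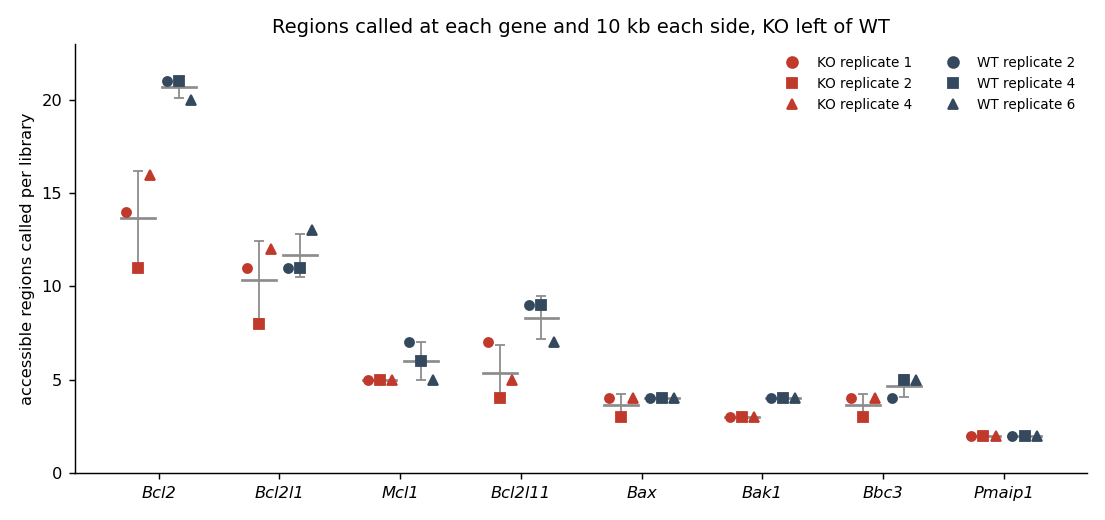
Number of accessible regions called in each library (y axis) at each of the 8 genes and 10 kb each side (x axis), with KO libraries in red left of WT libraries in dark blue; horizontal bars are group means and whiskers 1 SD (n = 3 each). The groups are apart at Bcl2, where KO libraries called 11 to 16 and WT libraries 20 or 21 regions, and at Bak1, with 3 and 4.

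Gene by gene, the groups were apart at Bcl2 and Bak1, where each KO library had fewer regions than any WT library. That is 2 of 8 genes (background 17.2% of 16246 protein-coding genes with a region), and no gene had more (background 0.0185%). Neither passed adjustment (exact permutation p = 0.1 each, Benjamini-Hochberg adjusted p = 0.58 over all genes). In equal-length lists the groups overlapped at both genes. The mean was lower in KO at 7 of the 8 genes and equal at Pmaip1. Of all genes with a region, 66.7% had a lower mean in KO. The median difference over the 8 was -1 region, against -0.333 over all genes with a region. These differences are not scaled to the number of regions at a gene, which was 26 at Bcl2. The ratio of KO to WT means was 0.799 for peaks at the 8 genes and 0.756 for all peaks of the lists.

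The promoters of 7 of the genes, Pmaip1 not among them, were read from RefSeq (GRCm38.p6, the assembly behind mm10) to show what the highest peaks cover. Of their 12 annotated starts 11 lay in a called region. The 250 bases before each of the 11 were searched on both strands for motifs of factors known from immune cells or from the control of cell death. The FOXO motif was spelled TGTTTAC and that of ETS factors was spelled CCGGAA, while SP1 was searched as GGGCGG. The CCAAT box was searched by its own letters, and the cyclic AMP element (CRE) as TGACGTCA. The AP-1 motif was spelled TGANTCA and the STAT motif was spelled TTCNNNGAA. The NF-kB consensus was spelled GGGRNNYYCC. The p53 letters were a single unit of 10 bases, RRRCWWGYYY, so a match need not be a full p53 binding element. R stands for A or G, Y for C or T, W for A or T and N for any base. Shown are a guardian rich in SP1 letters, a guardian with ETS letters and a pore former with a match of the p53 letters. Below are their windows, before Bcl2, Mcl1 and Bax, 5′ to 3′ on the strand of the gene, with motif matches in capitals.
Bcl2, chr1:106714291-106714540, minus strand: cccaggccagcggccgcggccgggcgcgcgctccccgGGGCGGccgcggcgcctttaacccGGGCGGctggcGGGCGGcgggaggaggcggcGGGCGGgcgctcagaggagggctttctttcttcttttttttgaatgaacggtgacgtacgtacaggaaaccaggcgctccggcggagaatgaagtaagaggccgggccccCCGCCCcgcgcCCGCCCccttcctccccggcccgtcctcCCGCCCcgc
Mcl1, chr3:95658471-95658720, plus strand: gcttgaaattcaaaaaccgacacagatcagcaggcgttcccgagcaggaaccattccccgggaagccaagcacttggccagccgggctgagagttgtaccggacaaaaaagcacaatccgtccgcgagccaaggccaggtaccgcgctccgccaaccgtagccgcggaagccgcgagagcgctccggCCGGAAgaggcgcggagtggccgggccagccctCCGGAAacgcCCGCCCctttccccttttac
Bax, chr7:45466899-45467148, minus strand: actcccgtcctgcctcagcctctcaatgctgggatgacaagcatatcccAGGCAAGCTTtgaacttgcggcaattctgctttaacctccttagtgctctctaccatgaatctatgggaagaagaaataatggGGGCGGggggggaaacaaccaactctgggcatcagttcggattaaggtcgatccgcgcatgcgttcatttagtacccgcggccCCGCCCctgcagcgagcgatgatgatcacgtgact

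The Bcl2 window held 7 matches of the SP1 letters, of which 3 stood within the 50 bases before the start, and its base composition was 74.8% G and C. The window of Mcl1 had 2 ETS matches, at positions -63 to -58 and -30 to -25 from the start, and the summits of the 6 libraries lay between 35 bp upstream and 17 bp downstream of that start. In the Bax window a match of the p53 letters stood at positions -201 to -192. The summits lay between 11 bp upstream and 107 bp downstream of the start. SP1 letters occurred in 8 of the 11 windows, against 42.6% of 21238 promoters of protein-coding genes, and ETS letters in 2, against 15%. Of the 11 windows 8 had more G and C than the median promoter (55.6%), and both windows of Bcl2l1 and that of Bax had less.

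Bcl2 encodes BCL-2, the guardian that gave the family its name. Its gene spans 176 kb of chromosome 1 (106538176 to 106714290, mm10, minus strand) and held 26 of the 71 regions, every one inside the gene. KO libraries called 14, 11 and 16 of them, against 21, 21 and 20 in WT libraries. The groups did not overlap, and the gap was 7 regions on average (13.7 ± 2.52 in KO, 20.7 ± 0.577 in WT). In lists of equal length KO libraries called 14, 11 and 13 and WT libraries 16, 13 and 13, and the groups overlapped. Of the 26 regions, 11 were called in all 6 libraries and 10 in no KO library. Over all regions of the series the shares were 45.4% and 25.6%. Of regions elsewhere in gene spans than over a start, 37.9% were called in all 6 libraries.

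Heights are given as the authors' pileup, the number of extended tags stacked at the summit, divided by the median pileup of the list of that library. The directions of heights depended on this scale. With the pileup scaled to the median of the shared regions or per M tags, no region of the 37 was lower in every KO library, and by the authors' fold over the local background 4 were. The start of Bcl2 lay in a region at 106713635 to 106714655 with heights of 2.25, 2.69 and 2.26 in KO replicates 1, 2 and 4, against 2.54, 2.96 and 2.52 in WT replicates 2, 4 and 6. This was the highest region of the gene, and the groups overlapped. At 1.81 kb downstream of the start a second region, 106712178 to 106712773, had heights of 1.45, 1.75 and 2.00 in KO and 2.18, 2.63 and 2.28 in WT. Every KO value there was below every WT value, with a log2 ratio of KO to WT means of -0.45.

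The far end of Bcl2 held the largest gap in height among the regions called in all libraries. A region 153 kb downstream of the start (106560901 to 106561598) had heights of 0.750, 0.563 and 0.565 in KO, against 1.21, 1.41 and 0.862 in WT. These were low pileups in KO, of 15, 9 and 13 tags, against 34, 38 and 25 tags in WT. The lowest pileups of any peak in the KO lists were 5, 4 and 6 tags. The log2 ratio of this region, -0.89, was the lowest of the 37 regions called in all libraries. The 5th percentile of all such regions of the series was -0.73. The region is named because its ratio was the lowest, so its place against that percentile is no test. On the scale of the shared regions the groups overlapped. By the fold over the local background, taken from the same peaks, it was lower in every KO library (background 20.1%). The folds were 3.98, 4.13 and 3.18 in KO and 6.10, 6.27 and 4.44 in WT. A neighbouring region at 147 kb (106567546 to 106567838) was WT-only, with pileups of 38, 38 and 30 tags in WT libraries. The authors' fold over the local background was 3.83, 3.74 and 3.29 there. At 144 kb lay one of the highest regions of the gene body (106569377 to 106570652), with 2.35, 2.00 and 2.13 in KO and 2.43, 2.48 and 2.48 in WT. It was lower in every KO library on the scale of the list medians (log2 ratio -0.19) and higher in every one on that of the shared regions (0.15).

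The other WT-only region of Bcl2, 84.9 kb downstream of the start (106629202 to 106629655), was weak, with pileups of 16, 13 and 12 tags in WT libraries. In equal-length lists the region at 147 kb was called in 2 WT and no KO libraries and the weak one in none. With peaks kept at a −log10 q-value of at least 5, these numbers were 3 WT and no KO, and 1 WT and no KO.

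**Figure D2:**
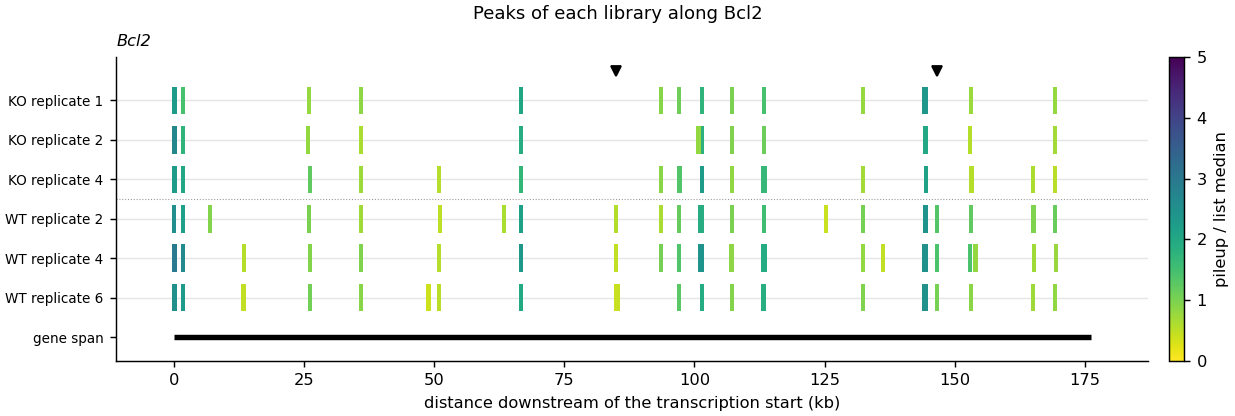
Peaks of each library along Bcl2, by distance downstream of the transcription start (x axis, kb), with the KO libraries above the WT libraries and colour giving the pileup over the median of the list; very narrow peaks are widened to be seen. Triangles mark the 2 WT-only regions, at 84.9 and 147 kb, and the bar at the bottom is the gene.

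Bcl2l1 encodes BCL-XL, a guardian induced in activated T cells. The gene (chromosome 2, 152758732 to 152833803, minus strand) had 14 regions, of which KO libraries called 11, 8 and 12 and WT libraries 11, 11 and 13, so that the groups overlapped. With peaks kept at a −log10 q-value of at least 5 they were apart, at 9, 6 and 8 in KO and 11, 11 and 12 in WT. No share over all genes is given for that cut-off. In equal-length lists the groups overlapped, at 10, 8 and 11 in KO and 10, 10 and 9 in WT. The start region, 152830326 to 152831918, was the highest at any of the 8 genes, with heights of 4.80, 4.81 and 3.78 in KO and 4.21, 4.44 and 5 in WT. The groups overlapped there and the log2 ratio was -0.03. The region ranked on average at percentile 98.6 by pileup within the lists, where the starts of all protein-coding genes that were called in all libraries had a median of 87.3.

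Along the body of Bcl2l1 the highest region stood 5.87 kb downstream of the start. It (152825456 to 152826254) had 2.90, 2.75 and 2.87 in KO and 3.11, 3.44 and 3.10 in WT, with each KO library below each WT library and a log2 ratio of -0.18, whereas on the scale of the shared regions each KO library was above each WT library (0.17). Farther in, at 42.3 kb (152788847 to 152790067), the heights were 1.25, 1.63 and 1.52 in KO and 2.11, 2.00 and 1.97 in WT, a log2 ratio of -0.47 with no overlap. This region was also narrower in KO, where peaks covered 220, 482 and 445 bp, against 804, 1221 and 934 bp in WT. Another region of the body (152810042 to 152810647) was called in all WT libraries, at 1.14, 1.11 and 1.14, and in KO replicate 1 alone, at 0.6.

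Mcl1 encodes MCL-1, a short-lived guardian whose gene is small. At Mcl1 (chromosome 3, 95656944 to 95663179, plus strand) 7 regions were found, of which each KO library called 5 and the WT libraries 7, 6 and 5. Its start region, 95658164 to 95659792, had heights of 3.2, 3.56 and 2.91 in KO and 3.29, 3.93 and 3.48 in WT, and the groups overlapped. Each KO library and WT replicate 2 called it as 2 separate peaks, with the second summit 847 to 859 bp downstream of the start, and WT replicates 4 and 6 as 1 long peak. Covered bases were 940, 1066 and 999 in KO and 1323, 1456 and 1461 in WT.

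Downstream of Mcl1 lay a row of regions with high pileups. In every library their folds over the local background were below that of the start region. At 7.56 kb the folds were 3.90 to 4.52, against 6.34 to 8.53 at the start. At 7.56 kb from the start (95666102 to 95666459) heights were 2.80, 2.19 and 2.3 in KO and 2.61, 3.15 and 2.83 in WT. At 10.3 kb (95668654 to 95669470) they were 2.35, 2.06 and 1.96 in KO and 1.89, 2.41 and 1.86 in WT, one of 2 regions among the 37 with a log2 ratio above 0 (0.05). The groups overlapped at both places on the scale of the list medians. At 10.3 kb every KO library was above every WT library on the scale of the shared regions (background 13.7%). The same held there for the fold over the local background (background 4.55%), with 3.11, 3.30 and 2.86 in KO and 2.49, 2.61 and 2.38 in WT. At 14.2 kb (95672475 to 95673413), on the long noncoding RNA gene Gm52627, they were 2.70, 2.44 and 2.39 in KO and 3.29, 2.89 and 2.79 in WT, without overlap and with a log2 ratio of -0.25. Nearer to the gene, a narrow region (95664022 to 95664336) was called in WT replicates 2 and 4 alone, with pileups of 49 and 41 tags but folds over the local background of only 2.51 and 1.82.

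Bax and Bak1 encode the pore formers. Bax (chromosome 7, 45461695 to 45466903, minus strand) had 4 regions. KO libraries called 4, 3 and 4 of them, and each WT library all 4. Its start region, 45466159 to 45467252, had heights of 2.80, 2.50 and 2.48 in KO and 3.36, 3.67 and 2.72 in WT, with a log2 ratio of -0.33 and groups that overlapped through KO replicate 1 and WT replicate 6. The highest region in the window, 45458852 to 45460333, lay on the ferritin light chain gene Ftl1, 1.36 kb beyond the end of Bax. It had 3.2, 2.75 and 3.22 in KO and 3.29, 3.96 and 3.34 in WT, without overlap. A region on Gys1, 9.84 kb away (45451169 to 45451851), had the highest log2 ratio of the 37, 0.17, with 1.45, 1.56 and 2.04 in KO and 1.46, 1.59 and 1.45 in WT.

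Bak1 (chromosome 17, 27019812 to 27028627, minus strand) lies within the span of Ggnbp1 and had 4 regions. Every KO library called 3 and every WT library 4. The fourth, 27032875 to 27033344, 4.48 kb upstream of the start of Bak1 and inside Ggnbp1, was WT-only, with pileups of 25, 19 and 28 tags. In equal-length lists it was called in 1 WT and no KO library. The numbers at Bak1 were then 3 in each KO and 3, 3 and 4 in the WT libraries. With peaks kept at a −log10 q-value of at least 5 they were 3 in each KO and 4, 3 and 4 in the WT libraries. The groups overlapped in both settings. Without regions that lie on another gene the numbers at Bak1 did not differ. The start region of Bak1, 27027348 to 27029010, had 2.15, 2.25 and 2.3 in KO and 2.25, 2.78 and 2.66 in WT, and was the highest of the gene and the lowest of the 8 start regions by mean rank (percentile 82.8). On the 3′ side, the regions at 27017617 to 27018503 and 27011837 to 27013123 were lower in every KO library. They had 1.60, 1.38 and 1.70 in KO against 2.04, 2.04 and 1.90 in WT, and 1.40, 1.31 and 1.17 in KO against 1.57, 1.52 and 1.79 in WT.

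Bcl2l11 encodes BIM, the BH3-only protein that culls T cells when cytokines run out. At Bcl2l11 (chromosome 2, 128126038 to 128162547, plus strand) 9 regions were found, with 7, 4 and 5 called in KO and 9, 9 and 7 in WT libraries. The groups met at 7 regions, in KO replicate 1 and WT replicate 6. The gene has 2 annotated starts, each in a region of its own. At both, as at 56.1% of all protein-coding start regions called in all 6 libraries, every KO library was below every WT library. The upstream one (128125582 to 128126669), which overlaps the end of Acoxl, had 3.05, 3.19 and 3 in KO and 3.61, 4.19 and 3.48 in WT, with a log2 ratio of -0.29. The downstream one (128126912 to 128128153) had 2.65, 2.13 and 2.52 in KO and 3.11, 3.37 and 2.83 in WT, with a log2 ratio of -0.35, and its peaks covered 730, 722 and 625 bp in KO against 1152, 1052 and 1189 bp in WT.

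Further regions lay on its neighbour Acoxl. The one 8.22 kb upstream (128117525 to 128118115) had 1.65, 1.44 and 1.48 in KO and 1.86, 1.81 and 1.76 in WT, with a log2 ratio of -0.25 and no overlap. A narrow region in Acoxl (128122500 to 128122754) was high where it was called, at 2.05 in KO replicate 1, 2.29 in WT replicate 2 and 2.52 in WT replicate 4, and was not called in the other 3 libraries. Its folds over the local background were 3.43, 3.34 and 3.13. A region 31.0 kb into the gene (128156795 to 128157191) was WT-only, with pileups of 23, 27 and 29 tags and low folds over the local background of 2.40, 2.75 and 2.56. It was called in no library in equal-length lists or with the stricter q-value.

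Bbc3 encodes PUMA, a BH3-only protein best known as a target of p53. At Bbc3 (chromosome 7, 16308398 to 16318334, plus strand) 5 regions were found, with 4, 3 and 4 called in KO and 4, 5 and 5 in WT libraries. The start region, 16309165 to 16310444, holds 3 annotated starts and had heights of 2.60, 2.50 and 2.48 in KO and 3.25, 2.96 and 3 in WT. Every KO library was below every WT library, as at 56.1% of all such start regions, and the log2 ratio was -0.28. Within it each KO library and WT replicate 2 called 2 peaks, and WT replicates 4 and 6 a single long one. The highest summit lay 22 bp upstream of the first start in KO replicate 1, and 31, 67 and 21 bp upstream in WT replicates 2, 4 and 6. In KO replicates 2 and 4 it lay 558 and 554 bp downstream, in the other peak, whose height there exceeded that of the first (2.50 against 2.25, and 2.48 against 2.13). In WT replicate 2 the downstream peak was the lower, with 2.93 against 3.25.

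Inside Bbc3 a region at 16313609 to 16314378 was called in all WT libraries, at 2.18, 2.07 and 2.21, and in KO replicate 1 alone, at 1.90. The region 16.9 kb from the start (16326062 to 16326917) lay inside Sae1, a neighbouring gene of protein modification by SUMO, with 1.35, 1.13 and 1.70 in KO and 1.86, 2.11 and 1.69 in WT.

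FOXO letters, bound by the factors that switch on BIM and PUMA when growth factor signals fade, occurred in 2 of the 11 windows, at Bcl2l11 and Bbc3, against 2.61% of promoters. The 30 bases around each match are given because they set the motif beside the summits, with the match in capitals.
Bcl2l11, chr2:128125799-128125828, plus strand: caagacactaggGTAAACAcgccggggtgg
Bbc3, chr7:16310082-16310111, plus strand: gtctggcgggttTGTTTACaaacaatgggg

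At Bcl2l11 the match lay at positions -227 to -221 from the upstream start, and the summits of the 6 libraries were 137 to 158 bp downstream of its middle. At Bbc3 it lay at positions -167 to -161 from the middle one of the 3 starts. The highest summits of KO replicates 2 and 4 were 44 and 40 bp downstream of its middle. In the other 4 libraries the highest summits were at -581 to -535 bp, on its upstream side. KO replicate 1 and WT replicate 2 also called the downstream peak, as the lower of 2. Its summit lay 673 and 545 bp downstream of the first start there, against 558 and 554 bp in KO replicates 2 and 4. NF-kB consensus letters occurred in 2 windows, against 7.91% of promoters. These lay before the first start of Bbc3 (2 overlapping matches) and before a start of Bcl2l1. The p53 letters occurred in 1 window (6.30% of promoters) and CCAAT in 3 (35.4%). CRE, AP-1 and STAT letters were in none of the 11. A match is a description of the letters only, and the windows of the middle and last starts of Bbc3 overlap in part.

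Pmaip1 encodes NOXA, a BH3-only protein that binds MCL-1. Pmaip1 (chromosome 18, 66458604 to 66465558) had 2 regions, both called in all 6 libraries. The one over the gene's lower end (66457910 to 66459421) had 2.60, 2.50 and 2.43 in KO and 2.86, 3.44 and 3.28 in WT, without overlap and with a log2 ratio of -0.35. The other, 5.08 kb beyond the gene (66470638 to 66471985), had 1.60, 1 and 1 in KO and 1.82, 2.07 and 1.52 in WT. Its log2 ratio, -0.59, was second to the region at the far end of Bcl2, but KO replicate 1 exceeded WT replicate 6.

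**Figure D3:**
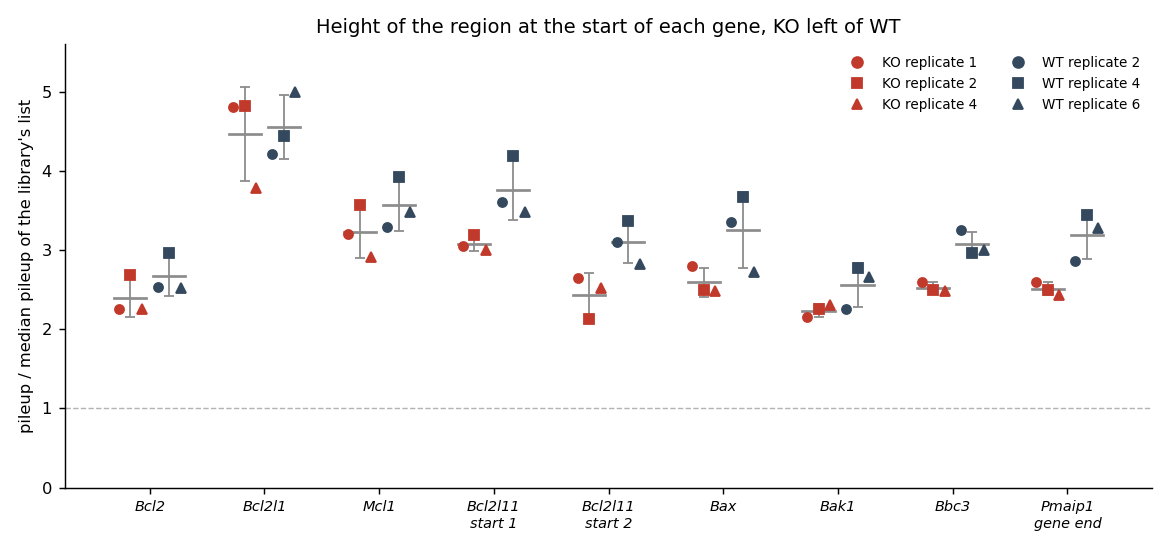
Pileup over the median pileup of the list of each library (y axis) for the regions over transcription starts and the region over the lower end of Pmaip1 (x axis), KO in red left of WT in dark blue, with group means and 1 SD (n = 3 each); the dashed line is the list median. Bcl2l1 stands highest with 3.78 to 4.81 in KO and 4.21 to 5 in WT, and the groups do not overlap at the 2 starts of Bcl2l11, at Bbc3 and at Pmaip1.

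**Figure D4:**
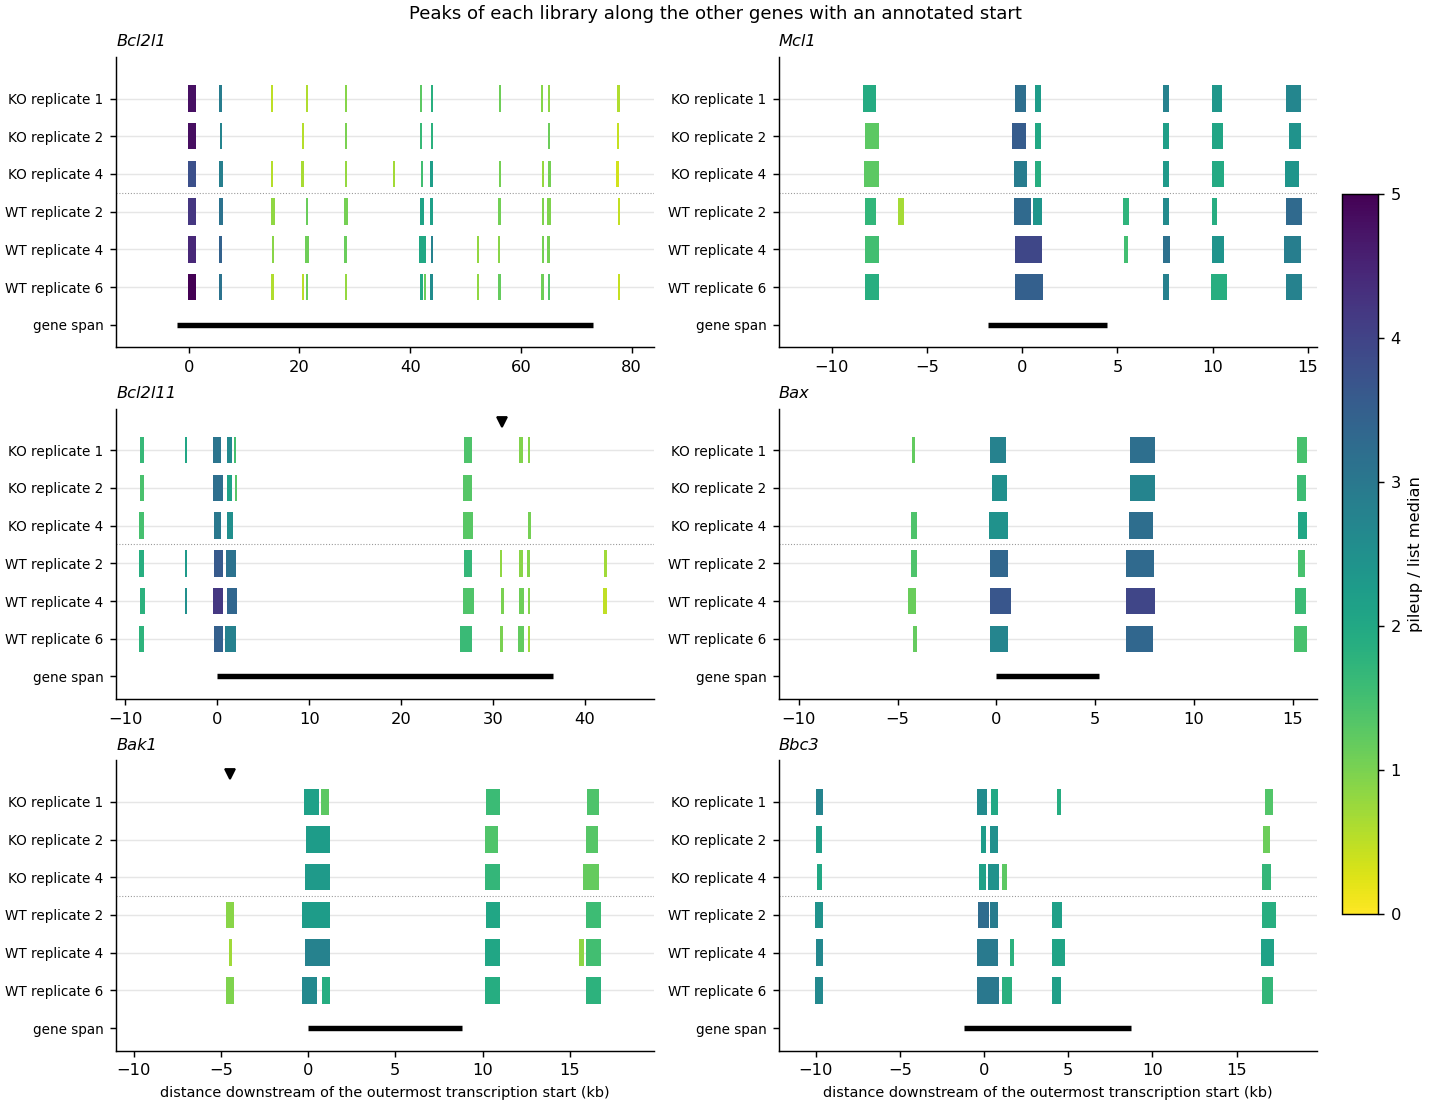
Peaks of each library along Bcl2l1, Mcl1, Bcl2l11, Bax, Bak1 and Bbc3, by distance downstream of the outermost annotated start (x axis, kb), KO above WT, with colour for the pileup over the list median and triangles for WT-only regions. The spans of Bcl2l1, Mcl1 and Bbc3 begin farther upstream, at -2.075, -1.777 and -1.185 kb from the outermost start used here. The regions over the starts used here are called in every library. The WT-only regions lie 31.0 kb into Bcl2l11 and 4.48 kb upstream of Bak1.

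Across the 37 regions called in all libraries, heights over the list median were lower in KO on the whole, but so were those of the genome. At 14 of the 37 (37.8%, and 22 when KO replicate 1 was left out) every KO library was below every WT library, against a background of 48.2% of the 29419 regions of the series called in all 6 libraries, and at none was every KO library above, against 0.197%. The median log2 ratio was -0.22 over the 37 and -0.31 over all 29419, so relative to the whole series the 8 genes stood 0.094 higher. That difference was 0.035 to 0.090 when each library was left out in turn. The sign of the median log2 ratios depended on the scaling. When the pileup was divided by the median of the shared regions instead, the median log2 ratio was 0.12 over the 37 and 0.04 over all, no region of the 37 was lower in every KO library (background 6.9%) and 5 were higher (background 13.7%). With the pileup per M tags, none was lower (background 3.34%) and 1 higher (background 4.7%). By the fold over the local background 4 of the 37 (10.8%) were lower in every KO library, against a background of 20.1%, and 1 was higher (background 4.55%). The 4 were the Bcl2 regions at 153, 113 and 1.81 kb and the Bak1 region that starts at 27017617. The 1 higher was the Mcl1 region at 10.3 kb.

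On the scale of the shared regions the far end of Bcl2 was again lowest of the 37, at -0.54, and the region on Gys1 highest, at 0.52. The start of Bcl2l1 was at 0.32, that of Mcl1 at 0.21 and the upstream start of Bcl2l11 at 0.06. The median over the 8 start regions was 0.11, against 0.08 over the starts of all protein-coding genes. On this scale and per M tags, the groups overlapped at the starts of Bcl2l11 and Bbc3 and over Pmaip1. Covered length gave a like picture: peaks covered fewer bases in every KO library at 15 of the 37 regions (40.5%), close to the background of 40.3%, and more at none (background 0.238%).

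**Figure D5:**
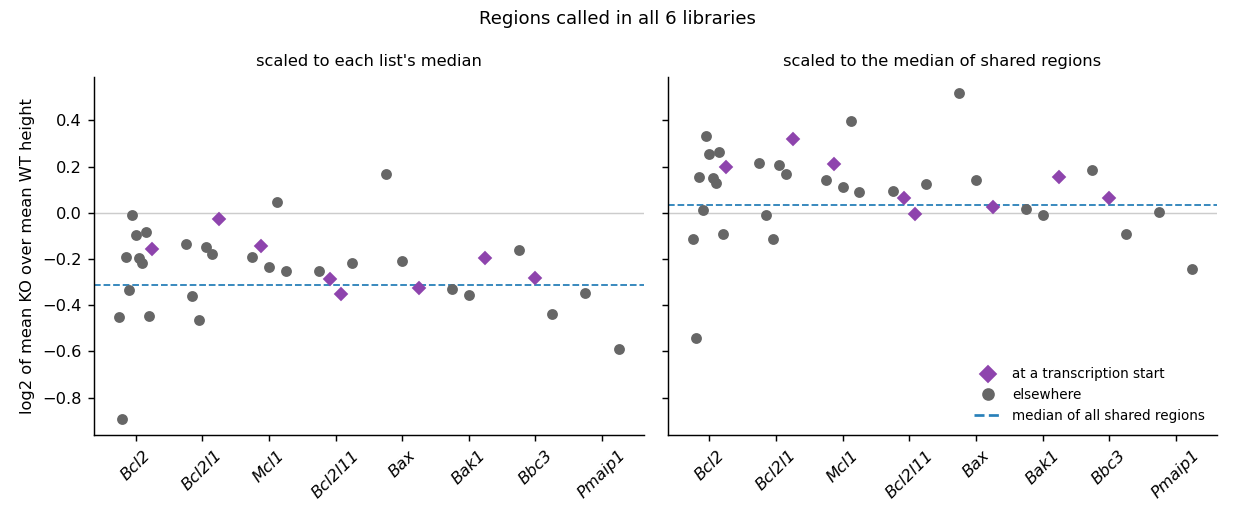
log2 of the mean KO over the mean WT height (y axis) for the 37 regions called in all 6 libraries, by gene (x axis), scaled to the median of each list (left) and to the median of the shared regions (right); diamonds are start regions, circles others, and the dashed line is the median of all 29419 shared regions. The points spread from -0.89 to 0.17 on the left and from -0.54 to 0.52 on the right.

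Among the other genes of the death pathways described here, 6 had fewer regions in each KO library than in any WT library. Of 15 further BCL2 family genes 13 had a region, and 2 of these are among the 6: Bmf, a BH3-only gene, with 5, 2 and 5 in KO and 6, 6 and 7 in WT, and Bcl2l14, with 4, 2 and 2 in KO and 5, 5 and 6 in WT. Bcl2a1a and Bcl2l10 had none, and the near-identical copies of the Bcl2a1 group may share tags, so their numbers are uncertain. Among 7 genes of the apoptosome and the caspases, 1 had fewer regions in every KO library, the caspase inhibitor gene Xiap, with 1 in each KO and 3, 3 and 2 in the WT libraries. In the death receptor pathway 3 of 6 did. Fas, the receptor, had 4 in each KO and 6, 7 and 5 in the WT libraries, Casp8, its initiator caspase, 4, 3 and 4 in KO and 5, 6 and 5 in WT, and Cflar, which encodes the inhibitor FLIP, 6, 6 and 8 in KO and 10, 9 and 10 in WT. No gene of the 3 lists had more regions in every KO library. The median differences of the lists were -0.667, -0.667 and -0.833 regions, against -0.333 over all genes with a region. They are not scaled to the number of regions at a gene. Of all genes with a region 17.2% had fewer in each KO library. Each adjusted p of the 6 named genes was 0.58 (exact permutation, adjusted over all 16246 genes).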

How the data were processed

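The deposited files were peak lists, 1 per library, from 3 KO and 3 WT libraries. Per the submitters' processing notes reads were handled with tools among which are Bowtie2 2.3.1 and Picard 1.88, on mm10. Per the file headers peaks were called by the authors with MACS 2.1.1.20160309 on each library alone, without a control, at a q-value of 0.05, with a shift of -100 bp, an extension of 200 bp and 1 tag kept per position. These settings centre each tag on its 5′ end; the sources used here do not state whether ends were first moved to the Tn5 cut or mitochondrial reads removed. Pileup, a signal deposited per peak, was not scaled to depth. The deposited −log10 q-value was used to shorten lists, and the deposited fold enrichment is a ratio over the expected local level. Heights and folds are the authors' values per peak and were described, not tested.

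Peaks overlapping by 1 bp or more were merged. The height of a region in a library was that of its highest peak. Genes and promoters came from RefSeq tables of GRCm38.p6, which hold starts and strands for 7 of the 8 genes and no exons. Transcription starts are those of the promoters, and the span of a gene can begin farther upstream. Two-sided exact permutation tests used all 20 assignments of libraries. Numbers of regions per gene were adjusted by Benjamini-Hochberg over all protein-coding genes. The members and lists were chosen with earlier results of these data known, and the motifs after the data were seen. For each gene the text names the start region, the highest region, WT-only regions and up to 3 regions whose groups did not overlap. A few others were chosen after their values were seen. From the other lists it names genes whose groups did not overlap. Of the genes in the lists, 2 are not reported here. Steps were tested on simulated data. Computations ran in Python 3.11.15 with SciPy 1.17.1, pandas 2.3.3, statsmodels 0.14.6, NumPy 2.4.6, and figures were drawn with Matplotlib 3.10.9.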

Additional observations from a re-analysis of the deposited data

How the results depend on the processing

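The number of regions at the 8 genes, KO minus WT, was -14.7 and stayed below 0 in every setting tried. It was -2.33 in equal-length lists (exact permutation p = 0.7), -17 with replicate numbers 2 and 4 as a replicate block, and -17.2 to -10.8 when each library was left out in turn. Covered length behaved alike, with -12.7 to -9.62 kb on leaving out a library. The labels do not say that a replicate number marks a shared animal or day, and deviations from the group means correlated at -0.02 for number 2 and -0.05 for number 4 over the 29419 shared regions, so the numbers were not taken as pairs. The share of peaks per 10000, 0.642 higher in KO, was 0.432 to 0.896 on leaving out a library and turned to -0.53 when peaks had to cover 50% of a region. WT-only regions numbered 0 in equal-length lists and 8 with 50% coverage, against 4, and 4 to 7 on leaving out a library, 7 being without KO replicate 1. Regions called in all libraries numbered 37 to 44 on leaving out a library. The median log2 ratio of heights, -0.22, was -0.30 to -0.19 on leaving out a library and changed sign to 0.13 in equal-length lists, 0.12 on the scale of shared regions, 0.15 per M tags and 0.0022 for the fold over local background. The cause was not tested. The 14 regions with lower heights in each KO library became 0 in equal-length lists, on the shared scale and per M tags, 4 for the fold, 9 without flanks and 22 without KO replicate 1. At Mcl1 the difference, -1 region, turned to 0.67 in equal-length lists. Leaving out regions on neighbouring genes was added after the data were seen and moved the difference of -14.7 to -13.7.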
